A study of Mus musculus with 10 samples.

Results

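NPM1 binding was compared between 2 resting mouse macrophage populations, macrophages taken from the hearts of sham-operated animals and unstimulated macrophages grown from bone marrow. The comparison took every region of the NPM1 peak list of each population, 58011 regions for the sham heart and 58989 for the untreated culture, together 117000 of the 427705 regions in 6 peak lists of the study. The sham list comes from wild-type (WT) cardiac macrophages at Day 3 after a sham operation. The untreated list comes from WT bone marrow-derived macrophages (BMDM), labelled untreated at 0 hours and grown over 7 days in medium that held M-CSF at 50 ng/ml. The other 4 lists served only to ask whether a region was called elsewhere. They are NPM1 in WT cardiac macrophages at Day 3 of a myocardial infarction, NPM1 in WT BMDM given 20 ng/ml IL-4 for 12 hours, and H3K4me3 in cardiac macrophages at Day 3 of an infarct from WT and from NPM1 knockout mice. With 1 library per group, nothing here could be tested against the spread between replicates, and p-values are left out. The labels do not say how many animals or cultures entered a library, and the 2 populations also differ in tissue of origin and in culture, which cannot be told apart here.

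NPM1 (nucleophosmin) is an abundant nucleolar protein that moves between nucleolus, nucleoplasm and cytoplasm, takes part in ribosome assembly and the nucleolar stress response, and acts as a histone chaperone. It is not known for a DNA sequence motif of its own. Cardiac macrophages comprise long-lived resident cells and cells renewed from blood monocytes, whereas BMDM arise in culture from marrow progenitors under M-CSF, the growth factor that drives macrophage development. CUT&Tag places a transposase at antibody-bound sites, and the reads it produces pile up where the protein, or DNA that the enzyme can reach, lies. A peak is a stretch where that pileup exceeded the local background.

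The sequences before 5 gene starts are shown first, as examples of peaks in both lists, in sham only and in untreated only. They were picked after their values were seen and are not typical of their classes, whose GC and CpG content is given further on. Each sequence is the 250 bases before a transcription start in RefSeq (GRCm38.p6, the assembly of mm10), 5′ to 3′ on the gene's strand. Capitals mark the bases under a peak, and for genes of both lists the bases under both peaks. Zfp317, which encodes a zinc finger protein (chr9:19621841-19622090, + strand), and Add3, which encodes the membrane skeleton protein adducin gamma (chr19:53142506-53142755, + strand), had peaks in both lists. Ctsc, encoding the lysosomal protease cathepsin C (chr7:88277835-88278084, + strand), and Hdac2, encoding a histone deacetylase (chr10:36974294-36974543, + strand), had a peak in the sham list only. Fam214b (chr4:43046221-43046470, − strand) had a peak in the untreated list only.
Zfp317: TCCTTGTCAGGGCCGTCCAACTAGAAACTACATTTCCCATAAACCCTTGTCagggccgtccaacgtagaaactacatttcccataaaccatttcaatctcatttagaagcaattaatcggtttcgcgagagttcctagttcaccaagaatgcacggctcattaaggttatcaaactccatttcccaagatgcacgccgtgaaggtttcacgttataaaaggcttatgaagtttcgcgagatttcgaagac
Add3: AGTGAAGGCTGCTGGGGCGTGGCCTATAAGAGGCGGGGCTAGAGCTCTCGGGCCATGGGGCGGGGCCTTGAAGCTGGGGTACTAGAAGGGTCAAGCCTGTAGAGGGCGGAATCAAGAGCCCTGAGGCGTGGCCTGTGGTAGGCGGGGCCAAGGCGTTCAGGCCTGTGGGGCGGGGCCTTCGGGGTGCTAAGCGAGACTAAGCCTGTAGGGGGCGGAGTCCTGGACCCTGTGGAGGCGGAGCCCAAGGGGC
Ctsc: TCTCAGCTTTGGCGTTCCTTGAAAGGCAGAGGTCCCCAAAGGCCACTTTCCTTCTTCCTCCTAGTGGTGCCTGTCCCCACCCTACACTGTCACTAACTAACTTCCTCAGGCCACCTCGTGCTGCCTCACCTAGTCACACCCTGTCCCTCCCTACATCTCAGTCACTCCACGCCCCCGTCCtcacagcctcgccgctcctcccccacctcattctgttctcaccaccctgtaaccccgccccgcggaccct
Hdac2: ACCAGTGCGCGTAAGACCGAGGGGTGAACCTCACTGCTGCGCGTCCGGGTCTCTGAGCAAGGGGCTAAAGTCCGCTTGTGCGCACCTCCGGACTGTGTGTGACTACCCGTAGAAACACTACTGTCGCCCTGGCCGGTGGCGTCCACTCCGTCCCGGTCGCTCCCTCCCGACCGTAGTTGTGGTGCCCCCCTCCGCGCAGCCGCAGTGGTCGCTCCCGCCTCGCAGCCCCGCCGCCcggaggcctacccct
Fam214b: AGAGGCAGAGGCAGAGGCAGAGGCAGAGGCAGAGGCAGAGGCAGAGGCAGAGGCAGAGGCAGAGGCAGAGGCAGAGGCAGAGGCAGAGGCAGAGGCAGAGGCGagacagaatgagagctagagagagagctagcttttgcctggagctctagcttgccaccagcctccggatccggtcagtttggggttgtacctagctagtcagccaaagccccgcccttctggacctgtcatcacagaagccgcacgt

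The summit of the Zfp317 peak held 20 reads in the sham list and 19 in the untreated list. The Add3 summits held 8 and 12 reads. Ctsc and Hdac2 each had a sham summit of 12 reads and no untreated peak. The GC content of the promoter window, which also takes in the 50 bases after the start, was 44.7% at Zfp317, 68.3% at Add3, 60.3% at Ctsc and 69.7% at Hdac2. Zfp317 repeats a run of 24 bases exactly within its 250, and 0.841% of all promoters repeat a run at least as long. The Fam214b peak, with 21 reads, lay over 16 copies of GAGGCA in a row. Only 4 of 20085 promoters (0.0199%) hold 3 or more copies in a row on either strand.

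Both libraries were of similar depth. The genome-wide background, read from the peak values, was 1.29 reads for sham and 1.31 for untreated, against 2.49 to 4.18 in the other 4 lists. The lowest summit held 5 reads in both lists. The median summit held 8 reads in sham and 9 in untreated, and regions were 233 and 271 bp wide at the median. On the 19 autosomes the lists held 56007 and 51269 regions, which covered 15.9 and 17.5 Mb, or 0.664% and 0.727% of the span between the outermost peaks. A deposited q above 0.05 was carried by 22.3% and 26.4% of them, so many are weak. All results that follow are for autosomes.

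About 1 region in 5 was shared. Of the sham regions, 11346 (20.3%, 95% Wilson interval 19.9 to 20.6) overlapped an untreated region by 1 bp or more, and 44661 did not. Of the untreated regions, 11172 (21.8%, 21.4 to 22.2) overlapped a sham region and 40097 did not. Such intervals cover counting error only. If each region were placed uniformly on its own chromosome, 1.29% of the sham and 1.41% of the untreated regions would overlap, 725 in each list, so the observed sharing was 15.6 and 15.4 times that. Placement within 500 kb of each region, which keeps the local density of regions, gave ratios of 13.9 and 13.8. The sham ratio was larger in stricter lists, at 19.6 with q of 0.05 or less, 58.5 with a −log10 q of 3 or more and 108 with a fold of 5 or more. The shared sham percentage itself moved far less, to 19.9, 25.7 and 24.6. Stricter lists are shorter, so placement gives fewer overlaps and the ratio rises. These placements take no account of where reads can map. Among chromosomes the shared percentage ran from 14.7 on chromosome 11 to 25.1 on chromosome 3 for sham and from 19.5 on chromosome 2 to 24.0 on chromosome 8 for untreated.

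Sharing rose steeply with the height of the peak. Sham regions with summits of 5 to 7 reads were shared in 10.7% of cases, those with 8 to 10 reads in 17.6%, with 11 to 15 in 36.2%, with 16 to 30 in 61.8% and with more than 30 in 86.0%. The same classes of the untreated list gave 11.1%, 16.5%, 30.4%, 62.2% and 83.8%. Ranked by −log10 q, the strongest 10% of each list were shared in 55.9% (sham) and 59.3% (untreated), and the weakest in 10.7% (600 of 5601) and in 513 of 5127 regions. Even the weakest regions thus overlapped more often than uniform placement gives, as the plot of sharing by peak strength shows. Of the regions with a −log10 q of 100 or more, 123 of 125 in sham and 104 of 105 in untreated were shared. Regions found in 1 list only were narrower and lower, with medians of 219 bp and 8 reads in sham and 251 bp and 8 reads in untreated, against 317 bp and 10 reads and 364 bp and 11 reads for shared ones.

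**Figure D1:**
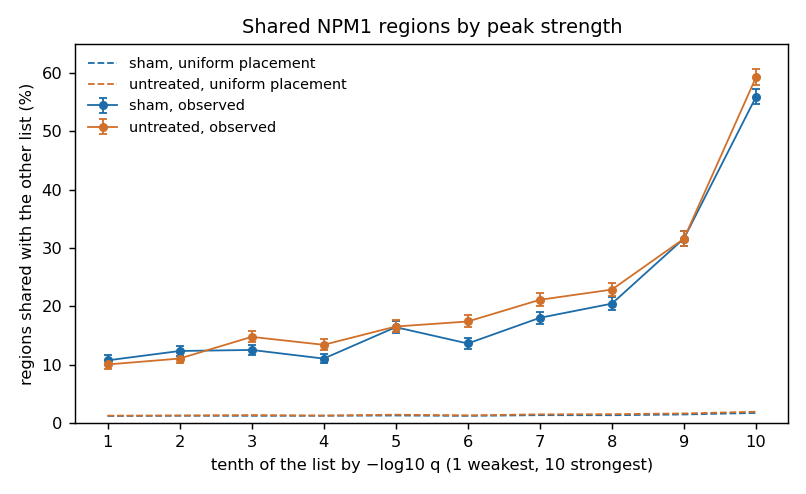
Percentage of autosomal NPM1 regions of each list that overlap the other list (vertical axis) in 10 equal classes of −log10 q (horizontal axis, strongest at the right, ties split in list order); bars are 95% Wilson intervals and dashed lines the percentage from uniform placement. Sharing goes from 10.7% to 55.9% in the sham list and ends at 59.3% in the untreated list, while uniform placement reaches 1.69% at most in the sham list.

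Where both lists had a region, most heights were within 2-fold of each other. There were 11595 overlapping pairs, and in 10335 each region had a single partner. Their summits lay 88 bp apart at the median, and 54.6% lay within 100 bp. After division by each library's background, the untreated to sham ratio of summit reads had a median log2 of 0.10, with 95% of pairs between -1.61 and 1.42. A difference under 2-fold was found in 81.6% of pairs, 857 pairs were over 2-fold higher in untreated and 1045 in sham. The summits of a pair held 10 and 11 reads at the median, so counting error alone is wide. A pair also needs a called peak in both lists, which by itself limits how far low summits can differ. Of 185 pairs with 50 or more reads in both lists, 138 were within 2-fold, the median log2 was -0.12, and single pairs ranged from -3.21 to 2.45.

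The tallest shared regions lay outside genes and were called in all 6 lists. On chromosome 7 (chr7:145340869-145341485, mm10), 17.1 kb from Mrgprd, which encodes a sensory neuron receptor, the summit held 4353 reads in sham and 5061 in untreated. A region on chromosome 12 (chr12:120028605-120029109), 7.62 kb from Tmem196, held 3437 and 3662 reads, and one on chromosome 14 (chr14:124801501-124802260), 124 kb from the growth factor gene Fgf14, held 4076 and 4442. The local backgrounds were high as well, at 160 and 177 reads on chromosome 7, 80.9 and 86.4 on chromosome 12, and 201 and 208 on chromosome 14. Genome-wide they were 1.29 and 1.31. These summit heights differ little between the lists. A region on chromosome 2 (chr2:98666179-98667393), 1040 kb from Lrrc4c and with no protein-coding gene within 500 kb, did differ, with 3905 reads in sham and 12119 in untreated. Its local background also differed, 344 against 793 reads, so its fold was 11.3 and 15.3. All 123 shared sham regions with a −log10 q above 100, and 103 of the 104 untreated ones, were called in all 6 lists, the H3K4me3 list of NPM1 knockout cells included. What these tall regions share with that list was not tested.

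The tallest regions of 1 list only were much lower. In sham they lay on chromosome 2, 13 kb from the bile salt exporter gene Abcb11 (132 reads), on chromosome 10, 32.2 kb from the endosome tether gene Eea1 (123 reads), on chromosome 4, 831 kb from the pigment enzyme gene Tyrp1 (106 reads), and inside the sorting adaptor gene Pacs1 (81 reads). All 4 were called in each of the other 4 lists, so the untreated list alone lacked them. In the untreated list, the region on chromosome 6 near the parathyroid hormone-related protein gene Pthlh held 64 reads and was called in 2 other lists, and the one near the homeobox gene Evx1 held 45 reads and was called in all 4. A further 2 lay near the start of chromosome 9, 324 and 305 kb from Alkbh8, with 1019 and 727 reads over local backgrounds of 411 and 433, which makes folds of only 2.48 and 1.68.

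Shared regions were not a gene-end class. By midpoint, 1.78% of the shared sham regions (1.55 to 2.04) lay within 1 kb of either end of a protein-coding gene, where 3.10% of the autosomal bases lie. A further 34.5% lay elsewhere in a gene, against 39.2% of bases, and 36.8% (36.0 to 37.7) lay over 50 kb from any gene, against 34.9% of bases. Up to 5 kb from a gene lay 3.82% against 4.40% of bases, and at 5 to 50 kb 23.0% (22.3 to 23.8) against 18.4%. Per base, shared regions thus stood at 0.575 times at gene ends, at 1.25 times between 5 and 50 kb and at 1.05 times beyond. The shared untreated regions gave 1.77%, 34.6% and 36.7%. Among shared sham regions with a −log10 q of 5 or more, 29.3% lay over 50 kb from any gene, 0.84 times the bases. Of these sham regions, 43.1% lay elsewhere in genes and 1.79% at gene ends. The shared untreated regions of that strength gave 36.4% (1.04 times the bases), 36.8% and 1.27%.

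The regions of a single list differed in where they lay. Of the sham-only regions, 4.16% (3.98 to 4.35) lay at gene ends, 42.9% elsewhere in genes and 26.1% (25.7 to 26.5) over 50 kb away. Of the untreated-only regions, 2.5% (2.36 to 2.66) lay at gene ends, 30.3% elsewhere in genes and 42.0% (41.6 to 42.5) over 50 kb away. Per base, gene ends were occupied 1.34 times in sham-only and 0.809 times in untreated-only regions, and remote DNA 0.746 and 1.20 times. The gene-end excess of sham-only regions did not hold among strong ones. With a −log10 q of 5 or more, 52 of 2534 sham-only regions lay at gene ends, 0.663 times the bases, and 23 of 1922 untreated-only regions, 0.386 times. The remote shares of these strong regions were 27.5% and 43.0%. Outside genes the median distance to the nearest gene was 44.8 kb for sham-only, 70.4 kb for shared (70.1 kb counted on the untreated side) and 91.6 kb for untreated-only regions. Among regions with a fold of 5 or more, the shared and the sham-only regions no longer stood apart, with 29.9% and 29.6% over 50 kb from a gene. The plot of location sets the 3 classes side by side, with shared regions between the others at every distance except gene ends and 5 to 50 kb.

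**Figure D2:**
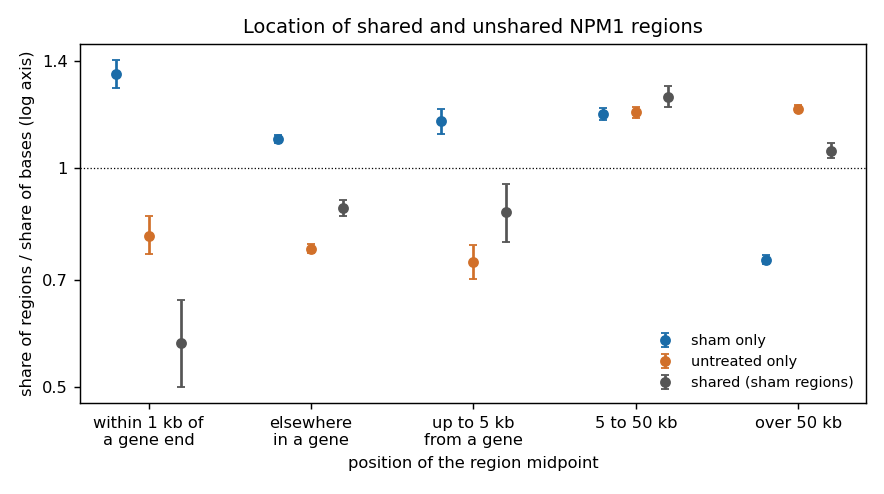
Share of regions in each location class divided by the share of autosomal bases there (log axis, dotted line at 1) for regions in the sham list only, the untreated list only and both; bars are 95% Wilson intervals. Sham-only regions stand at 1.34 at gene ends and 0.746 over 50 kb away, untreated-only regions at 0.809 and 1.20, and shared regions at 0.575 and 1.05.

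Gene content around the regions gave the same picture. In 1 Mb bins with no protein-coding gene the lists held on average 9.17 sham-only and 19.4 untreated-only regions, and in bins with 16 or more genes 27.7 and 13.9. With 1 to 3 genes the means were 12.7 and 18, and with 4 to 7 genes the order had turned, at 18.3 and 16.8. Shared regions were flat, from 4.29 in bins without genes to 4.35 in the richest bins, with a highest mean of 5.14. For comparison, all infarct regions went from 6.86 to 68.9 per bin and all IL-4 regions from 18.2 to 76.5. Across the 2394 bins, Spearman's rank correlation between gene count and region count was 0.545 for the sham list and −0.263 for the untreated list. Between the 2 lists it was 0.0321. Pearson's correlation was 0.352, −0.163 and 0.396 in the same order, so for the 2 lists the 2 measures differ. Some bins were dense in both lists, such as bin 85 of chromosome 1 with 168 sham and 140 untreated regions. These correlations are descriptions, since all bins come from the same libraries.

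**Figure D3:**
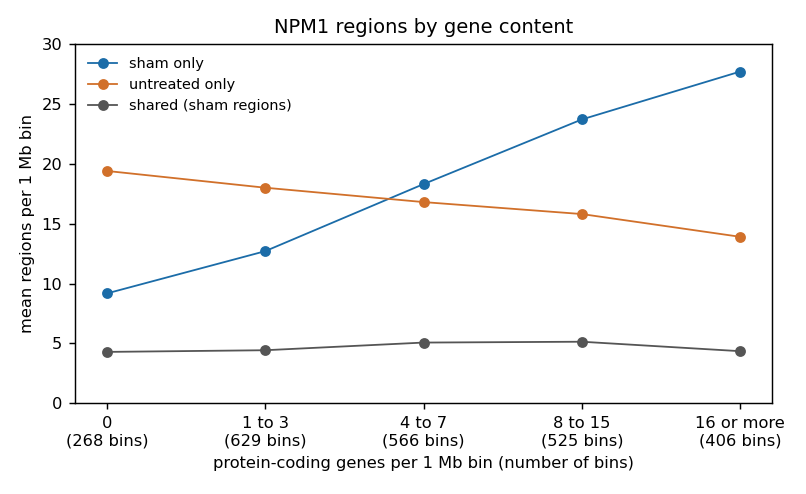
Mean number of regions per 1 Mb bin (vertical axis) by the number of protein-coding genes in the bin (horizontal axis, number of bins in brackets) for sham-only, untreated-only and shared regions. Sham-only regions climb from 9.17 to 27.7, untreated-only regions fall from 19.4 to 13.9 and shared regions stay between 4.29 and 5.14.

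Sharing was also more frequent far from genes in the sham list. There, 9.81% of gene-end regions (202 of 2060, 8.6 to 11.2) were shared and 26.4% of those over 50 kb away (4181 of 15822, 25.7 to 27.1). Local placement gives 1.32% and 1.56%. In the untreated list the order was different, with 16.5% at gene ends (198 of 1202), 24.1% elsewhere in genes and 19.5% over 50 kb away. Local placement gives 2.05%, 1.71% and 1.27% there, and the ratios to it were 8.04, 14.1 and 15.4. The sham ratios were 7.40, 13 and 16.9, so in both lists the ratio was lowest at gene ends and highest far from genes. The most remote shared regions lay on chromosome 14, where one 2210 kb from Pcdh20, inside the lncRNA gene Gm33246, held 8 sham and 12 untreated reads, and a pair 2160 kb from the olfactomedin gene Olfm4 each held 9 sham reads with 15 and 11 untreated reads. On chromosome 1, 2140 kb from Cntnap5b, a taller region with 33 and 11 reads was called in all 6 lists.

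The 4 other lists split the 2 resting lists further. Of the shared sham regions, 83.3% were also called in the IL-4 list, 56.2% in the infarct list, 51.6% in the H3K4me3 list of WT infarct cells and 19.9% in that of knockout cells. Only 11.5% (1303) were in none of the 4, and 17.9% (2034) were in all. Uniform placement gives 2.19% to 3.16%. Depth differs among these lists, so their percentages do not rank them. The 1303 regions called in none of the 4 had a larger remote share, 41.6% over 50 kb from a gene against 21.5% for the 2034 called everywhere, and 1.30% against 4.42% at gene ends. The tallest of them were low, with 19 sham and 15 untreated reads 98.5 kb from Kcnip4, 13 and 14 reads 13.4 kb from Wdr75, and 14 and 12 reads inside the neuronal gene Nav3.

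Sham-only regions recurred in the infarct, IL-4 and WT H3K4me3 lists alike, and untreated-only regions more in the IL-4 list than in the others. Sham-only regions were found in 22.2% of cases in the infarct list, in 28.0% in the IL-4 list, in 23.9% in the WT H3K4me3 list, and in 8.95% of cases in the knockout H3K4me3 list. Untreated-only regions were found in 31.6% of cases in the IL-4 list, the other BMDM list, but in 8.72% in the infarct list and 6.13% in the WT H3K4me3 list, and in 2.74% in the knockout list. Over 50 kb from genes this gap was wider, at 31.7%, 5.75% and 3.40%, and the knockout H3K4me3 list held 0.386%, below the 0.755% from local placement. At gene ends no such gap was seen, and 49.8%, 45.4%, 49.2% and, for the knockout list, 48.7% of the 1004 untreated-only regions recurred. The sham-only regions at gene ends recurred in 34.4%, 30.2%, 32.0% and 29.9%. Lists from the same tissue may share library handling as well as cell type, and the 2 cannot be told apart.

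**Figure D4:**
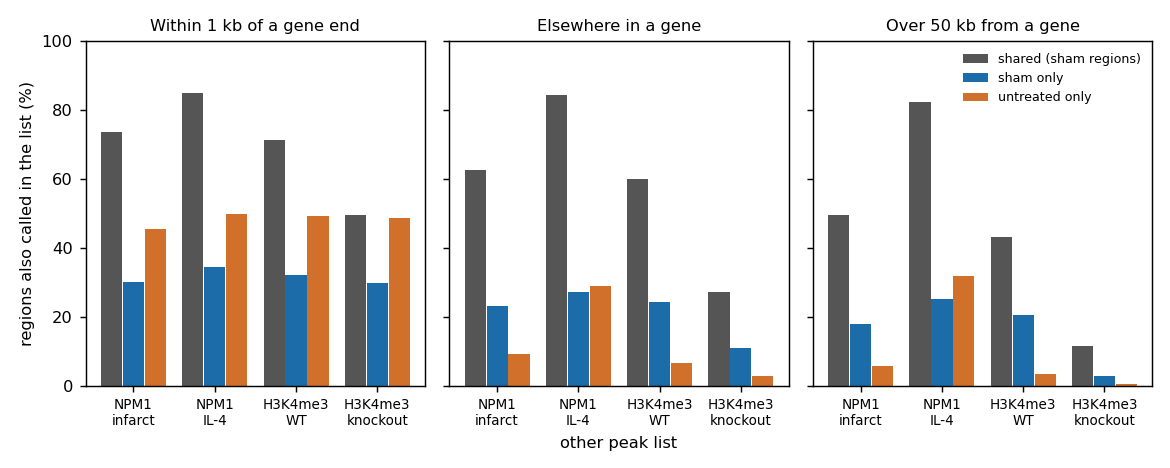
Percentage of shared, sham-only and untreated-only regions (bars) that were also called in each of the 4 other lists, for regions at gene ends, elsewhere in genes and over 50 kb from a gene. Untreated-only regions over 50 kb away reach 31.7% in the IL-4 list and 3.40% in the WT H3K4me3 list, whereas at gene ends all 4 lists hold 45.4% to 49.8% of them.

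At the level of genes, the sham list marked more genes than the untreated list. A gene was counted where a peak reached the 1 kb on either side of either outermost end. Of 20665 autosomal protein-coding genes, 2336 (11.3%) had a sham peak, 1353 (6.55%) an untreated peak, 358 (1.73%) both, 1978 (9.57%) a sham peak only and 995 (4.81%) an untreated peak only, which left 17334 with neither. Uniform placement of the peaks gives 2016 genes for sham and 1846 for untreated, so sham stood at 1.16 and untreated at 0.733 times placement. Independent lists of these sizes would share 153 genes, and the 358 observed are 2.34 times that. They were 15.3% of the sham and 26.5% of the untreated genes, and in 228 the peaks overlapped at the same end. Few peaks at gene ends were strong, with 142 sham and 82 untreated genes at a −log10 q of 5 or more.

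Which end of the gene was marked also differed. Strand was known for 16457 of the genes. Sham peaks lay at the start of 939 and at the far end of 1120 (ratio 0.838). Untreated peaks lay at 765 starts and 423 far ends (ratio 1.81), and infarct peaks at 7933 and 2348 (3.38). In the 250 bases before the start there were 234 untreated summits, 2.18 times uniform placement, and 135 sham summits, 1.15 times. The highest sham value near the start, 1.60 times (187 summits), fell 250 to 500 bases downstream. At 3 to 5 kb from the start the sham list stood at 1.19 and the untreated list at 0.664 times uniform, so the untreated peak rises from a lower floor. Neither approached the infarct list, which reached 22.7 times. The infarct library was deeper, with a background of 3.03 reads against 1.29 and 1.31. The part of depth in this contrast was not tested.

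**Figure D5:**
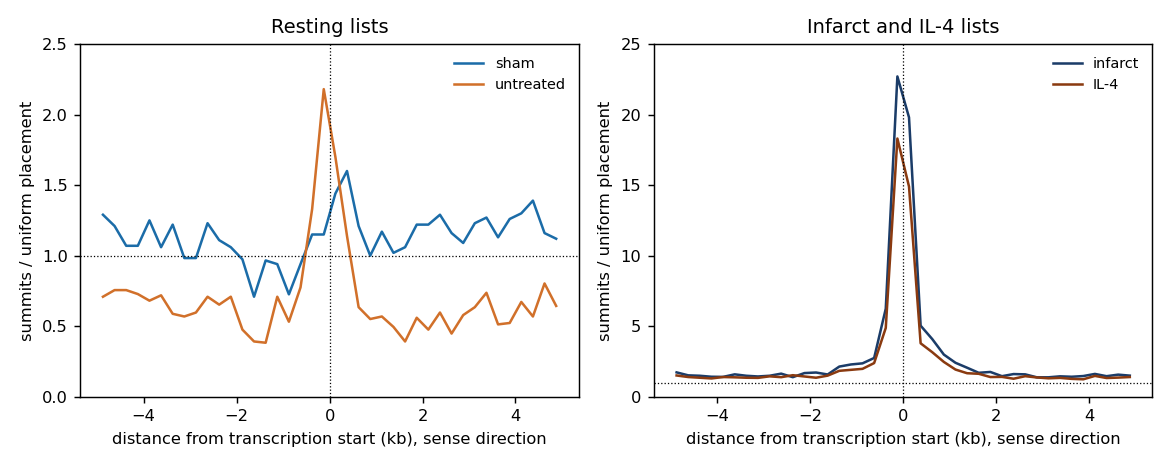
Summits per 250-base step divided by uniform placement (vertical axes, different scales; dotted horizontal line at 1) by distance from the transcription start in the sense direction (horizontal axes, kb) for the resting lists at the left and the infarct and IL-4 lists at the right. The untreated list reaches 2.18 just before the start and the sham list 1.60 after it, against 22.7 in the infarct list. The infarct and IL-4 libraries were deeper.

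Promoters with an untreated peak were rich in GC and CpG, as were those with an infarct or IL-4 peak. Among 20085 RefSeq promoter windows, 470 (2.34%) overlapped an untreated peak and 317 (1.58%) a sham peak, where uniform placement gives 1.31% and 1.35%. Both lists covered 36, and independent lists would share 7.42. Median GC was 64.3% in the 434 untreated-only, 58.7% in the 281 sham-only, 66.3% in the 36 shared and 56.7% in the unmarked promoters. The median number of CpGs per window was 24 in untreated-only, 12 in sham-only and 13 in unmarked promoters. Promoters under infarct and under IL-4 peaks each had a median GC of 62.3% and 23 CpGs, so this trait was not particular to the untreated list. The infarct list covered 80.6% of the untreated-only and 52.3% of the sham-only promoters, and 40.7% of those with neither. TATAAA, on either strand, was found in 5.99% of untreated-only, 13.2% of sham-only and 12.7% of all promoters, and in 5.86% of infarct and 5.73% of IL-4 promoters. The E-box CACGTG was found in 8.06%, 4.63% and 7.89%, and GAGGAAGT, a form of the site of the macrophage factor PU.1, in 2.53%, 4.27% and 3.18%. Such matches describe letters in the window and are not bound sites.

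The gene with the strongest overlapping peaks in both lists was Wls, which escorts Wnt proteins to the cell surface. It had 2023 sham and 2001 untreated reads 0.874 kb beyond its far end, at a region called in all 6 lists. The local backgrounds there were 47.6 and 45.9 reads. Lars2, the mitochondrial leucyl-tRNA synthetase, was the one among 12 with clearly more reads in untreated, 98 against 51. P2ry6, a receptor for UDP, had 49 sham and 17 untreated reads. Psmb8, a subunit of the immunoproteasome, had 48 and 18. Over the local background the differences were smaller. The folds were 15.3 and 23.6 at Lars2, 13.7 and 7.5 at P2ry6, and 9.14 and 6.6 at Psmb8. For these 3 the exact Poisson intervals of the counts do not overlap, as Lars2 had 38.0 to 67.1 in sham against 79.6 to 119. For the others they do, namely Sspn (43 and 30), Duxf3 (48 and 53), the interferon-induced Ifi44l (31 and 19), Laptm5, a lysosomal protein of blood cells (27 and 19), Adgrf2 (22 and 21), Lypd4 (29 and 18), Polr3gl, an RNA polymerase III subunit (19 and 16), and Zfp317. Of the 12 genes, 10 had these regions in all 4 other lists, and Ifi44l and Laptm5 in 3.

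The strongest genes of the sham list alone, with no untreated peak within 5 kb of either gene end, were led by Oasl1. This interferon-induced gene had 33 reads (fold 10.7) within 1 kb of a gene end. It was followed by Ocln, a tight junction protein (26 reads), Ms4a4a, a membrane protein of macrophages (23), Mfap2, a microfibril protein (31), Best3, a chloride channel (19), Elk3, an ETS factor (18), Ttll7, a tubulin-modifying enzyme (18), and Arhgef15 (19). All 8 also had a gene-end peak in each of the other 4 lists. Among all sham-only genes, 63.1% had one in the infarct list and 64.8% in the IL-4 list. The WT and knockout H3K4me3 lists held 66.5% and 66.7% of them. Genes with neither resting peak stood at 50.1%, 50.3%, 57.1% and 62.7% in the same order. The 8 genes were chosen as the top of a ranking, so their heights are a description.

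The strongest genes of the untreated list alone were lower. After Fam214b came Cndp1, a dipeptidase (23 reads), Stx8, a vesicle fusion protein (18), Cdca2, a cell division protein (18), Hspa4, a chaperone (14), Dsg4, a hair desmoglein (13), Tagap1 (13) and Tpbpb, a placental protein (13). Dsg4 had no gene-end peak in any of the other 4 lists and Tpbpb only in IL-4, whereas Fam214b, Cdca2, Hspa4 and Tagap1 had one in all 4. Among all untreated-only genes, 65.2% to 69.9% had one in a given list of the 4, against 50.1% to 62.7% of genes with neither resting peak.

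Few marker genes of the labelled cell types had a peak, and since a peak does not measure expression the lists do not check cell identity. The counts are read against the 11.3% (sham) and 6.55% (untreated) of all genes, and the marker lists are too short to set apart from those shares. Of 14 macrophage markers, 2 had a sham peak, Mertk, a receptor for dying cells (13 reads), and C1qa, a complement subunit (10 reads), and none had an untreated peak. The defining Csf1r, Adgre1 and Spi1 had none in either list within 1 kb, though the sham list had a peak within 5 kb of each and the untreated list within 5 kb of Csf1r. Of 7 resident markers, Cd163 (12 reads) and Folr2 (6 reads) had a sham peak, and Lyve1 and Timd4 had none. Of 8 monocyte markers 1 had a sham peak, Plac8 (11 reads), and Ccr2 had none. Markers of other cells were as sparse, with Actc1 of 10 cardiomyocyte genes (6 reads), Col1a1 of 8 fibroblast genes (7 reads), S100a8 of 8 neutrophil genes (8 reads), and 0 of 8 endothelial, 8 T and NK and 6 B cell genes. In the untreated list all of these markers were at 0. The 3 sham peaks over other cells' markers were near the floor of 5 reads, and their part in the result was not tested.

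The mTORC1 and TSC pathway, which couples nutrients and growth factors to cell growth, was covered at 5 of 27 genes in sham and 6 in untreated. In sham these were both TSC genes, the brakes of the pathway, Tsc1 (10 reads) and Tsc2 (7 reads), and the mTOR inhibitor Deptor (7 reads). In untreated they were the Rag GTPase Rragd (8 reads), Nprl2 of the GATOR1 brake (8 reads), Castor2 (8 reads) and Lamtor2 (7 reads). Lamtor2, a subunit of the lysosomal Ragulator anchor, was named after its value was seen. The translation repressor gene Eif4ebp2 had overlapping peaks in both (11 and 10 reads), and Mlst8, a subunit of the mTOR complexes, had peaks at different ends (7 reads each). Mtor itself had none in either list. As shares of the list these are 18.5% in sham and 22.2% in untreated, against 11.3% and 6.55% of all genes. Every peak named here held 7 to 11 reads, close to the floor of 5.

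Genes for histone chaperones and H3K4 methylation were marked at rates set beside the same 11.3% and 6.55% of all genes. Npm1 and Kdm5b, an H3K4 demethylase, had no peak within 5 kb of either gene end in either list. Of 17 nucleophosmin and histone chaperone genes, 2 were marked in each list (11.8%). Sham marked Ssrp1 (8 reads) and untreated Asf1b (9 reads), and Daxx was marked in both (8 and 7 reads) without overlap. Of 15 H3K4 methylation enzymes, sham marked 3, among them Wdr5 (8 reads), and untreated 1, Kdm1b (9 reads), which sham also marked (7 reads), which makes 20.0% and 6.67%. Of 24 genes of macrophage activation, the IL-4 receptor gene Il4ra alone had a sham peak (6 reads), 4.17% of the list. Ribosomal protein genes were marked at 3 (sham) and 2 (untreated) of 29, or 10.3% and 6.90%, with Rps2 in both. Genes silent in macrophages were marked at 3 and 1 of 18, or 16.7% and 5.56%.

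The larger gene families lay on both sides of the lists' overall rates. Olfactory receptor genes, which are used mainly in the nose and lie in clusters, were marked at 64 of 1104 in sham and 35 in untreated, 7 of them in both. That is 5.80% and 3.17%, against 11.3% and 6.55% of all genes. Vomeronasal receptor genes were marked at 25 and 13 of 354 (7.06% and 3.67%). Zinc finger genes of the Zfp series stood at 43 and 32 of 388 (11.1% and 8.25%), and solute carriers at 39 and 24 of 362 (10.8% and 6.63%). Keratin-associated protein genes were above the sham share at 10 of 56 (17.9%) and had 3 in untreated (5.36%). Beta-defensin genes had 6 and 2 of 42 (14.3% and 4.76%), and Hox genes, the body axis regulators, 1 and 1 of 39 (2.56% each). Protocadherin genes reached 16 of 67 in sham, but through 3 peaks only, since genes of a cluster share their far end.

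Among non-coding RNA genes, more snoRNA and miRNA genes were marked in sham than in untreated. Counts at tRNA, snRNA and rRNA genes were too small to set the lists apart. Neighbouring genes can share a peak, and distinct peaks are not given for these classes. Here a gene was marked where a peak overlapped the gene itself, without the windows at gene ends. These counts are set beside placement for the same genes, not beside the shares of protein-coding genes above. Sham peaks lay at 40 of 1286 snoRNA genes, whose products guide rRNA modification in the nucleolus, 3.33 times placement, and untreated peaks at 14, 1.14 times. Peaks lay at 22 and 7 of 1136 miRNA genes, 2.31 and 0.714 times placement. At snRNA genes they lay at 1 and 4 of 931, or 0.119 and 0.454 times placement. Immunoglobulin and T cell receptor V segments, which encode protein, had 42 of 394 in sham (5.51 times) and 9 in untreated (1.17 times), and the 6 in both were all Trav genes. Of 391 tRNA genes 6 and 2 were marked (1.95 and 0.612 times), while the infarct list marked 79 (14.1 times). Of 61 rRNA genes of the table, 4 and 1 were marked (6.56 and 1.64 times), with Rn4.5s in both. Many of these genes have near-identical copies, so reads may have been split among them and single genes are uncertain. lncRNA genes, at 3278 and 2263 of 12408, were close to placement (1.13 and 0.902 times).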

How the data were processed

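NPM1 and H3K4me3 were profiled by CUT&Tag, per the labels' protocols. The submitters' processing notes name mm10 and the tools MACS2 2.2.7.1, Bowtie2, deepTools and bcl2fastq 2.17. Settings, duplicate handling and control libraries were not stated in the sources. Of 10 libraries, 4 were not analysed here. Each deposited list gives, per peak, a fold (the ratio of summit pileup to local background), a −log10 p, a −log10 q, a score and a summit offset. The −log10 and score values are the authors' own and served to rank or filter peaks within a list.

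Reads at a summit and its background were recovered from the deposited fold and −log10 p, to within 0.001. Depth was taken from the most frequent background. Genes were the protein-coding genes of the GRCm38.p6 table, with windows of 1 kb on either side of both outermost ends. Non-coding genes and V segments were counted by overlap with the gene itself. Strand came from RefSeq promoters. Expected overlaps were computed exactly from covered bases, for uniform placement on the chromosome or within 500 kb, without resampling. Scripts were tested on simulated data. Alternatives changed thresholds, overlap rules, windows, stitching and chromosomes. Regions and promoters were not checked against a genome sequence.

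The comparison, the gene lists and the rule for named genes were chosen with earlier results of these data known. Named genes were the 8 strongest of each list with no peak of the other within 5 kb of either gene end. The 12 strongest overlapping in both and up to 3 members per class of each gene list were added. A further set was always named (Npm1, Kdm5b, Tsc1, Tsc2, Mtor, Csf1r, Adgre1, Spi1, Lyve1, Timd4, Ccr2). Predicted genes and chemoreceptors were passed over, and 1 gene list is not reported here. The promoters printed were picked after their values were seen. Python 3.11.15, numpy 2.4.6, pandas 2.3.3, scipy 1.17.1 and matplotlib 3.10.9 were used.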

Additional observations from a re-analysis of the deposited data

Results flagged for a closer look

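The sex chromosomes, which the comparison of autosomes leaves out, separated the 2 resting lists. The sham list held 1091 regions on chromosome X and 913 on chromosome Y, or 6.51 and 10.1 per Mb against 23.3 per Mb on autosomes. The untreated list held 3575 on X and 4145 on Y, or 21.3 and 45.7 per Mb against 21.3 on autosomes. The infarct list had 5.01 and 1.30 per Mb and the IL-4 list 15.8 and 20.8. Of the sham regions, 52.0% on X and 274 of 913 on Y overlapped an untreated region, and of the untreated regions 15.1% and 6.54% overlapped a sham region. The labels do not give the sex of the animals, and what sets these counts was not tested.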

How the results depend on the processing

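No paired analysis was possible because each group had 1 library, and for the same reason no replicate could be left out. In every alternative run, more of the shared than of the sham-only regions lay over 50 kb from a gene, though with a fold of 5 or more the values were 29.9% and 29.6%. Of 98 alternative values for 11 results, 38 stayed within the counting interval or 1.5 times the count. The percentage shared (sham and untreated) was 19.9 and 22.7 with q of 0.05 or less, 25.7 and 25.3 at a −log10 q from 3 upwards, 24.6 and 30.3 with a fold of 5 or more, and 21.1 and 20.8 with lists of equal length. It was 11.8 and 12.9 for a reciprocal overlap of 50%, 10.6 and 11.5 for summits within 100 bp, 21.0 and 20.3 on all chromosomes, 13.6 and 12.0 without regions of an H3K4me3 list, and 17.1 and 18.4 without regions in all 6 lists, an alternative chosen after seeing the data. Stitching within 1 kb gave 23.5 for untreated. The shared sham percentage over 50 kb from a gene was 33.6 (−log10 q of 3), 35.5 (reciprocal), 36.0 (summits), 38.5 (all chromosomes), 43.9 (without H3K4me3 regions) and 40.3 (without regions in all 6). Genes in both lists, sham only and untreated only numbered 67, 268 and 127 at −log10 q of 3, 33, 139 and 55 at a fold of 5, and 2271, 5398 and 1901 with a 5 kb window. Both and sham only came to 185 and 1199 with 500 bp, and 1010 and 3664 with 2.5 kb. Overlapping peaks at the same end left 228 genes in both. Ranked by fold, 53.5% of the strongest 10% were shared in each list. Apart from the changes of set or rule themselves, the cause of these shifts was not tested. At 5 or more reads per summit, a missing peak means that none was called at this depth.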
